A study of Mus musculus with 12 samples.

Results

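The unfolded protein response (UPR) and endoplasmic reticulum (ER)-associated degradation (ERAD) were followed through 33 genes, taken by gene symbol from the 47729 genes of the count table. These 33 genes encode the sensors, transcription factors, chaperones, disulfide isomerases and degradation factors of the pathway, and the question put to them was whether *Herpud1* changes together with the rest of the program or apart from it. RNA was sequenced from intestinal stem cells (ISCs) that had been sorted from small intestine. The mice, of the genotype Lgr5-EGFP-IRES-CreERT2, carry a green fluorescent protein and a tamoxifen-dependent Cre at the locus of the stem cell gene *Lgr5*. All 4 groups shared this genotype, an age of 8 to 10 weeks and a sort for bright green epithelial cells that lacked CD24 and markers of blood and endothelial cells. Each group had 3 libraries, from control mice (Ctrl), mice exposed once to restraint (stress, labelled CRS), mice injected intraperitoneally with the cyclodextrin carrier (vehicle) and mice injected once with corticosterone at 5 mg/kg in that carrier (CORT). Stress libraries 1+2 and 4+5+6 carry joined numbers, which read as pools of mice, and the sex of the mice behind each library is not given. Because nothing in the labels says that every library came from separate animals, p-values measure the spread between these libraries.

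When unfolded proteins accumulate in the ER, the membrane sensors IRE1 (genes *Ern1* and *Ern2*), PERK (*Eif2ak3*) and ATF6 (*Atf6*) start 3 signaling branches. IRE1 splices the mRNA of *Xbp1*, PERK slows translation and favors the synthesis of ATF4, and ATF6 is cut to release a transcription factor. The branches together induce chaperones such as BiP (*Hspa5*), folding enzymes and the ERAD machinery, in which HERP (*Herpud1*) helps the ubiquitin ligase HRD1 (*Syvn1*) and its partner SEL1L to move misfolded proteins to the proteasome. In the intestinal crypt the pathway is best known from secretory Paneth and goblet cells, which carry a heavy folding load, and from the passage of stem cells into dividing progenitors.

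The promoters are shown first, because the UPR is known to act on several of these genes through short ER stress elements. By exact match, *Herpud1* held another such element than *Syvn1*, the gene of the ligase it serves. RefSeq promoters of GRCm38.p6, from 250 bases before to 50 bases after the transcription start, were found for 28 of the 33 genes (30 promoters, since *Atf5* and *Derl2* have more than 1). The 250 bases before the start of *Herpud1* (chr8:94386179-94386428, plus strand) and of *Syvn1* (chr19:6046326-6046575, plus strand) are given 5′ to 3′, with the exact match to an ER stress element in capitals.
Herpud1: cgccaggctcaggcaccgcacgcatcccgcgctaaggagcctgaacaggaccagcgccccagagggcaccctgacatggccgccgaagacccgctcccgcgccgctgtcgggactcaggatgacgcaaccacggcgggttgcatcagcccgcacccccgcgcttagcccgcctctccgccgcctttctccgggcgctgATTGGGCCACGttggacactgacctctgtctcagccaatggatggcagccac
Syvn1: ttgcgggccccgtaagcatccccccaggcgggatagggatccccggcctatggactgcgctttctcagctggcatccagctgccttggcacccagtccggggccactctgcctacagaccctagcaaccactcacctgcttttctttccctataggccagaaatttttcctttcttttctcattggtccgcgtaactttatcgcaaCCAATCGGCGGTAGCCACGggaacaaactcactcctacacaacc

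The ER stress response element (ERSE) was searched as CCAAT and CCACG with 9 free bases between them, on both strands. It was present in 9 of the 30 promoters of these genes and in 39 of all 32851 promoters (0.119%). The 10 matches, with the fixed letters in capitals and read on the strand of the element, lie in genes for chaperones, folding enzymes, ERAD factors and the secreted factor CRELD2.
Calr: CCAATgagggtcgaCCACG
Canx: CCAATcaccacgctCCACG
Creld2: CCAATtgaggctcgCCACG
Derl3: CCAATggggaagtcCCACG
Dnajc3: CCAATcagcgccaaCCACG
Hsp90b1 (far from the start): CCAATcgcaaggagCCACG
Hsp90b1 (near the start): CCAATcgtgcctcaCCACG
Hspa5: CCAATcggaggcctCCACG
Pdia6: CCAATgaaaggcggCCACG
Syvn1: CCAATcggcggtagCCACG

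ERSE-II was searched as ATTGG and CCACG with 1 free base between them, and 12 of all promoters held it (0.0365%). Among the 30 promoters it stood in *Herpud1*, from 52 to 42 bases before the start, and in *Dnajb11*, from 8 to 18 bases after the start. The match of *Herpud1* shares its CCACG with the ERSE, and its ATTGG is the reverse complement of CCAAT. Only exact matches were counted. Up to the start, the *Herpud1* sequence above also holds ccaatggatggcagccac, an ERSE up to its last letter. The *Syvn1* sequence holds attggtccgcg, 1 letter from ERSE-II.
Herpud1, ERSE-II: ATTGGgCCACG
Dnajb11, ERSE-II: ATTGGcCCACG

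None of the 30 promoters held the core of the UPR element TGACGTGG (0.676% of all promoters), the ATF4 element in the form TGATGNAAT (0.965%) or the palindromic glucocorticoid response element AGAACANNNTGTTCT (0.00913%). One arm of that palindrome, AGAACA, was in 19.0% of all promoters and in those of *Dnajb11* and *Pdia4*. The *Herpud1* sequence above and the promoter of *Chac1* hold gttgcatca, which on the other strand is the ATF4 element up to its last letter. Near matches of this kind were not counted. No match says only that these letters are not in the 300 bases searched.

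Libraries held 15934907 to 17135770 estimated counts in Ctrl and stress, 16465961 to 31280267 in vehicle and 29426183 to 69533214 in CORT, so that the CORT libraries measured weak genes more precisely. Levels are CPM, counts divided by the library total after scaling by TMM (trimmed mean of M-values). A gene with 3 full read pairs has 12 estimated counts, which correspond to 0.173 to 0.753 CPM. Estimated counts therefore exceed the number of read pairs, and they were tested without conversion to pairs. Marker genes of ISCs summed to 10616 to 13854 CPM in every library, most of it from *Olfm4* (7369.7 to 9200.4 CPM in the group means). Of the 6, *Ascl2* was called lower in stress (log2 fold change -1.23), and *Ascl2* (-1.0), *Lgr5* (-0.43) and *Smoc2* (-0.31) in CORT. Markers of blood cells summed to 1.37 to 5.31 CPM, and those of plasma cells to 0 to 1.51 CPM, with *Igkc* and *Tnfrsf17* at 0 in all libraries. Stromal and endothelial markers summed to 0.392 to 0.945 CPM in vehicle and 1.49 to 3.25 CPM in CORT, and to at most 1.66 CPM in Ctrl and stress. Among them the endothelial gene *Pecam1* was called higher in CORT (2.12), at means of 0.542 CPM in vehicle and 2.37 CPM in CORT. The part of these cells was not tested. The glucocorticoid targets *Fkbp5* and *Tsc22d3* were higher in every treated library than in any library of its own control group. Enterocyte markers stood apart in stress, at 462 to 2007 CPM against 319.5 to 332 CPM in Ctrl, with 5 of 6 called higher. Goblet cell markers were at 451 to 1377 CPM in stress against 438 to 541 CPM in Ctrl, with 5 of 6 above 0 and *Zg16* (3.15) and *Clca1* (1.59) called higher, and tuft cell markers at 4.87 to 9.69 CPM against 10.9 to 13.3 CPM, with 0 of the 3 tested called. Paneth cell markers stood apart in CORT, at 105 to 118 CPM against 185 to 213 CPM in vehicle. A large part of that sum was *Mmp7*, at a mean of 90.5 CPM in vehicle and 37 CPM in CORT. It was at 22 CPM in Ctrl and 40 CPM in stress, and all 6 markers were below 0 in CORT. In sorted bulk cells, fewer cells of a type and less RNA per cell cannot be told apart.

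In TPM, a level that is also divided by transcript length and so allows genes to be compared, the 4 most abundant of the 33 genes in Ctrl were chaperones and a folding enzyme, and *Derl3*, *Trib3* and *Chac1* were the scarcest. In Ctrl the calcium-binding chaperone *Calr* led with 445 ± 35.6 TPM (SD, n = 3), followed by the isomerase *Pdia3* at 331 ± 23.6 TPM and the ER HSP90 *Hsp90b1* at 300.3 ± 14.5 TPM. *Herpud1* was at place 10 in Ctrl, with 92.5 ± 16.8 TPM, between *Pdia4* at 104 ± 2.9 TPM and *Dnajb11* at 77.6 ± 1.69 TPM, and its spread overlapped both neighbors. In vehicle it was at place 11 with 79.9 ± 11.6 TPM. It then stood at place 2 in stress, with 355 ± 11.4 TPM next to *Pdia3* at 341 ± 20.8 TPM, and at place 1 in CORT, with 519 ± 88.4 TPM above *Calr* at 421 ± 65 TPM. The spreads of *Herpud1* and its closest neighbor overlapped in both of these groups. Its share of the TPM of all 33 genes was 3.3% in Ctrl and 2.84% in vehicle, and 11.7% in stress and 17.4% in CORT. The sensors ranked from place 25 down, and *Derl3*, *Trib3* and *Chac1* stayed below 1.2 TPM in the mean of every group.

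Restraint was compared with Ctrl to ask which of these genes changed in stressed ISCs. *Herpud1* rose and no other of the 31 genes tested passed the threshold (edgeR, Benjamini-Hochberg adjusted p below 0.05 over all genes tested). *Herpud1* is at chr8:94386438-94395377 on the plus strand of mm10. It had 89.3, 116 and 79.2 CPM in Ctrl and 357, 364 and 357 CPM in stress. Every stress library lay above every Ctrl library, and the stress libraries differed from each other by less than the Ctrl libraries did. The log2 fold change was 1.92 with a standard error (SE) of 0.13 and an adjusted p of 0.00012, a 3.79-fold increase, and *Herpud1* had the fourth smallest p-value of all 13722 genes tested. Over all genes, 1.30% were called higher and 0.590% lower, and 0.612% were called higher by more than 2-fold, as *Herpud1* was. Enterocyte markers differed more than 4-fold among the stress libraries, at 1038, 462 and 2007 CPM in stress 1+2, 3 and 4+5+6, and their part in the result was not tested. The gene *Gm15890* overlaps *Herpud1* by 535 bases on the opposite strand, and its counts were 0% to 0.838% of those of *Herpud1* in the 12 libraries.

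For the remaining 30 genes the log2 fold change in stress had its median at -0.0075, beside -0.0028 over all genes tested. Of them, 15 were above and 15 below 0, and 28 lay within 0.5 of 0, as 85.1% of all genes did. The 95% interval of 27 of the 30 lay inside a 2-fold change in either direction. The exceptions were the low *Derl3* (2.26 with an SE of 1.08), the scarce sensor *Ern2* and *Ppp1r15a*, whose product dephosphorylates the translation factor eIF2α. *Trib3* and *Chac1*, targets of ATF4 and CHOP, were too low to be tested.

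**Figure D1:**
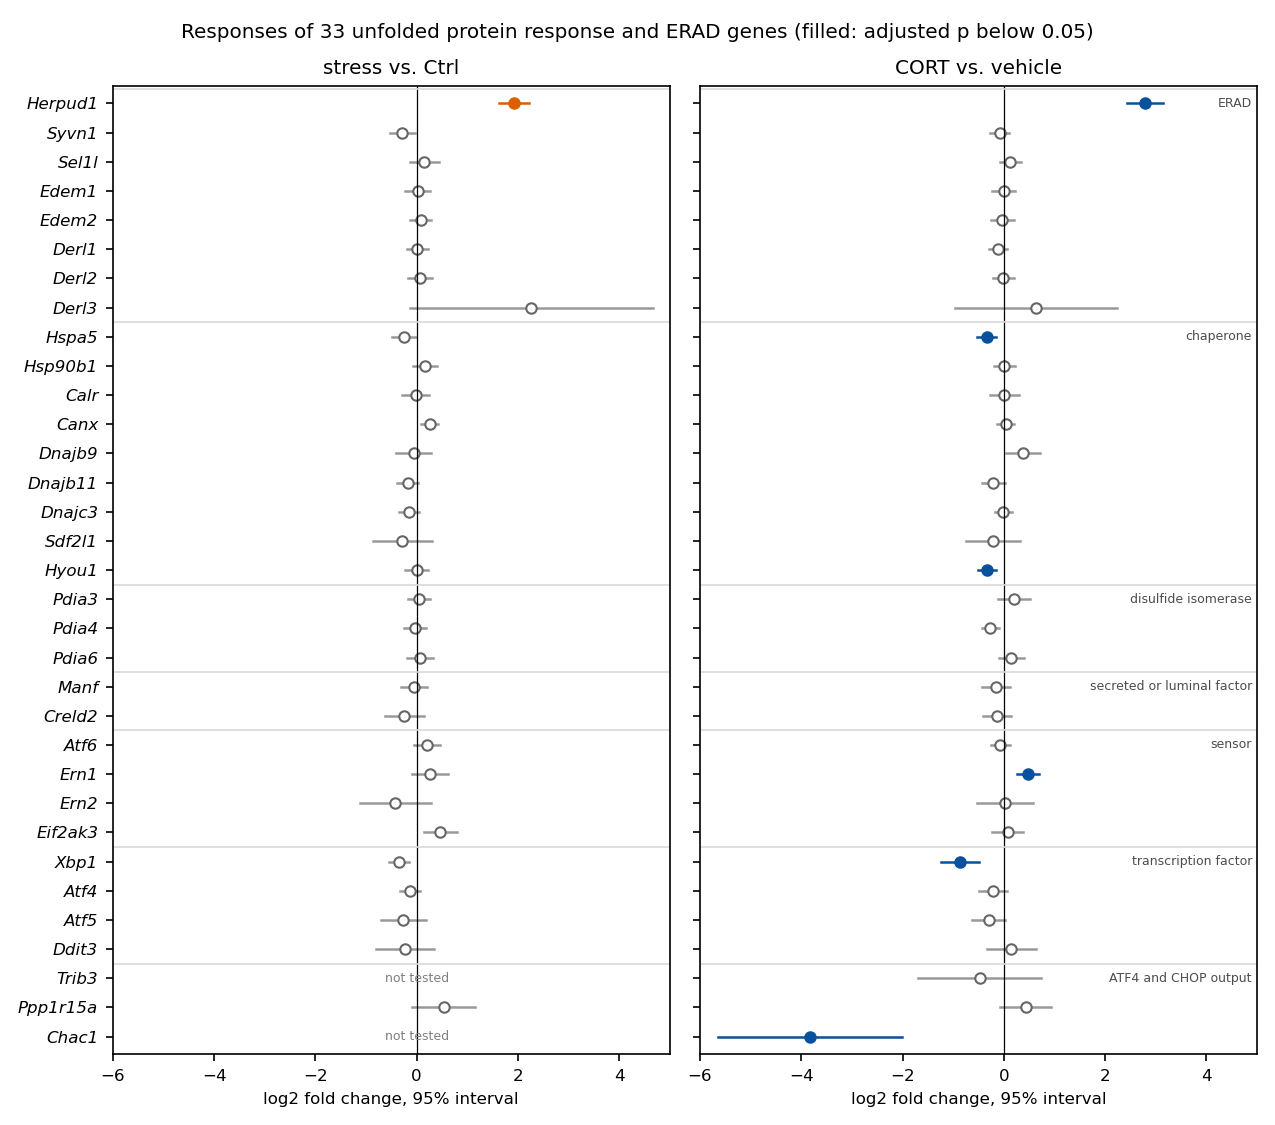
Log2 fold change (horizontal axis) of the 33 genes, grouped by role, in stress vs. Ctrl (left) and CORT vs. vehicle (right). Points are edgeR estimates, bars are 95% intervals, and filled points passed an adjusted p of 0.05: *Herpud1* is at 1.92 and 2.79, most other genes sit within 0.5 of 0, and the low *Derl3* is at 2.26 in stress with an interval that crosses 0.

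Among the ERAD genes other than *Herpud1*, 6 of 7 were above 0 and none passed, with a median of 0.063. *Syvn1*, the ligase that HERP serves, was at -0.28 (adjusted p = 0.283) with 54.2, 56.2 and 62.2 CPM in Ctrl and 52.7, 48.2 and 41.3 CPM in stress, and *Sel1l* was at 0.15 (adjusted p = 0.647). The mannosidase-like lectins *Edem1* and *Edem2* and the derlins *Derl1* and *Derl2*, which take part in recognition and retrotranslocation, lay between 0.016 and 0.08. All of these intervals were within 2-fold.

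Of the 9 chaperones, 3 were above and 6 below 0, with a range from -0.28 to 0.26. *Hspa5*, the chaperone most used as a readout of the UPR, had 446, 435 and 454 CPM in Ctrl and 356, 435 and 329 CPM in stress, so stress 3 reached the lowest Ctrl library while the others lay below (log2 fold change -0.25, adjusted p = 0.289). *Canx*, a lectin chaperone of the ER membrane, had 376, 363 and 347 CPM in Ctrl and 424, 445 and 426 CPM in stress, groups that did not overlap, at a log2 fold change of 0.26 and an adjusted p of 0.134. The 3 disulfide isomerases *Pdia3*, *Pdia4* and *Pdia6* were between -0.029 and 0.071, and the luminal factors *Manf* and *Creld2* at -0.043 and -0.25.

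Of the sensors, *Eif2ak3* had the largest estimate, 0.47 (SE 0.15, adjusted p = 0.157), with 24, 18.6 and 19 CPM in Ctrl and 30.8, 28.3 and 26.1 CPM in stress and no overlap between the groups. *Ern1* was at 0.27 and *Atf6* at 0.21. All 4 transcription factors were below 0. *Xbp1* had 139, 144 and 128 CPM in Ctrl and 106, 116 and 101 CPM in stress, again without overlap, at a log2 fold change of -0.35 (SE 0.089, adjusted p = 0.0911). *Atf4*, *Atf5* and *Ddit3* (CHOP) were at -0.13, -0.26 and -0.22.

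In stress, 7 of the 31 tested genes (22.6%) had groups that did not overlap, close to the 20.4% of all genes. At an unadjusted p below 0.05, 3 genes were higher (*Herpud1*, *Canx* and *Eif2ak3*) and 3 lower (*Syvn1*, *Hspa5* and *Xbp1*), beside 15.2% of all genes in either direction. Limma on log2 FPKM called *Herpud1* alone. DESeq2 also called *Canx* higher (adjusted p = 0.0325) and *Xbp1* lower (adjusted p = 0.0273). Without stress 3, edgeR called *Hspa5* (log2 fold change -0.37, adjusted p = 0.017) and *Xbp1* (-0.40, adjusted p = 0.0309) lower, so that the count of 0 lower genes depends on that library and on the test used.

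Corticosterone was compared with vehicle to ask which of the genes changed after the hormone. *Herpud1* rose. It had 66.1, 89.7 and 86.2 CPM in vehicle and 657, 589 and 454 CPM in CORT, and the lowest CORT library was above the highest of every other group. The log2 fold change was 2.79 (SE 0.16, adjusted p = 4.7e-05), a 6.91-fold increase, with the sixth smallest p-value of 14656 genes tested. *Ern1* also rose, and *Xbp1*, *Hspa5*, *Hyou1* and *Chac1* fell. Over all genes 3.64% were called higher and 4.50% lower, beside 2 (6.06%) and 4 (12.1%) of the 33, and 1.13% were called higher by more than 2-fold, as *Herpud1* was. With counts thinned to the smallest library the same 2 higher and 4 lower counts were found.

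**Figure D2:**
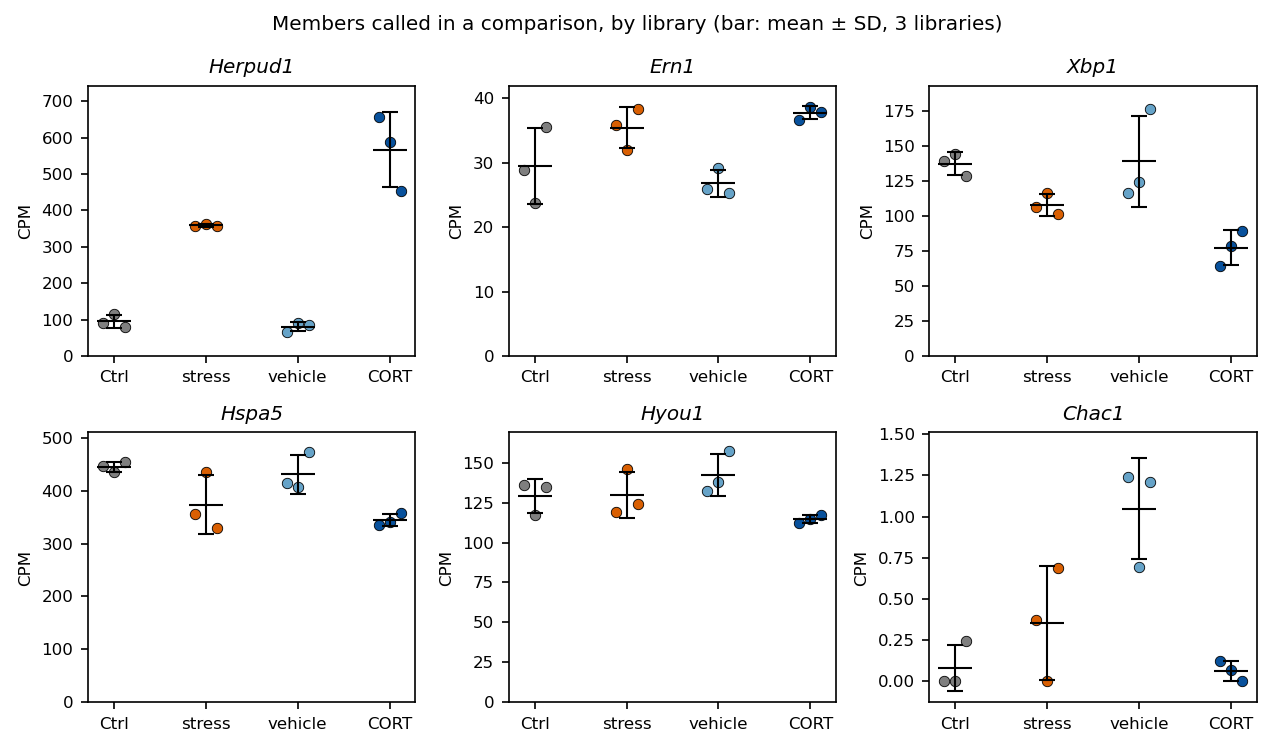
CPM (vertical axis, linear) in each library of the 6 genes called in a comparison, by group (horizontal axis). Points are libraries and bars the mean ± SD of 3 libraries: *Herpud1* lies at 66.1 to 116 CPM in Ctrl and vehicle, 357 to 364 CPM in stress and 454 to 657 CPM in CORT.

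*Ern1*, the IRE1α sensor, had 25.9, 29.2 and 25.3 CPM in vehicle and 36.7, 38.7 and 37.9 CPM in CORT, with no overlap. Its log2 fold change was 0.47 (SE 0.10, adjusted p = 0.0218). The call was lost without vehicle 3, vehicle 6, CORT 4 or CORT 5 (adjusted p 0.0288 to 0.101 over the 6 libraries left out) and on log2(FPKM + 1) with limma (0.31, adjusted p = 0.134). The other sensors *Atf6*, *Eif2ak3* and *Ern2* lay between -0.07 and 0.075 and did not pass.

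*Xbp1*, whose mRNA is the substrate of IRE1, had 116, 124 and 176 CPM in vehicle and 64.1, 78.3 and 88.9 CPM in CORT. All CORT libraries lay below all vehicle libraries, and vehicle 6 stood above the other vehicle libraries. Its log2 fold change was -0.86 (SE 0.17, adjusted p = 0.0142), and without CORT 4 it was -0.87 with an adjusted p of 0.0606. The counts cover the whole gene, so spliced and unspliced *Xbp1* were not separated. Paneth cell markers moved with it, with 4 of 6 called lower in CORT and all 6 below 0, and their part in the result was not tested. The sort had left out CD24+ cells, which are known to include Paneth cells, and all 6 markers still had counts in every library. In stress, where *Xbp1* was also lower in every library, these markers summed to 168 to 261 CPM against 135 to 172 CPM in Ctrl. Their part was not tested there either.

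*Hspa5* had 414, 406 and 473 CPM in vehicle and 335, 341 and 358 CPM in CORT, a log2 fold change of -0.34 (SE 0.084, adjusted p = 0.0365). *Hyou1*, a large ER chaperone that releases nucleotide from BiP, had 132, 138 and 157 CPM in vehicle and 112, 115 and 117 CPM in CORT, also at -0.34 (SE 0.081, adjusted p = 0.0343). In both genes the groups did not overlap and CORT was at 0.788 and 0.792 of the vehicle level. Of 9 genes of the dissociation and heat shock response, *Hspa1a* (-2.71), *Hspa1b* (-2.23), *Dnajb1* (-0.49) and *Junb* (-0.81) were also called lower in CORT, as were 4 of 6 Paneth cell markers, and their part was not tested. Both calls were close to the threshold. That of *Hspa5* was lost when any of the 6 libraries was left out (adjusted p 0.0558 to 0.144), and that of *Hyou1* without vehicle 5, vehicle 6 or any CORT library (adjusted p up to 0.122). The estimates kept their sign throughout, at -0.38 to -0.28 and -0.39 to -0.26. *Pdia4*, an isomerase of the same lumen, had 134, 151 and 147 CPM in vehicle and 126, 116 and 122 CPM in CORT without overlap, at -0.27 (adjusted p = 0.0651, and 0.0318 with DESeq2).

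*Chac1*, which degrades glutathione, rests on few reads. It had 21, 12 and 37 estimated counts in vehicle and 8, 4 and 0 in CORT, or 18 against 3 read pairs in the deeper CORT libraries. Scaled to depth, the ratio of CORT to vehicle was 0.0679, with an exact 95% interval of 0.0128 to 0.233 that covers counting error only. Its log2 fold change was -3.83 (SE 0.81, adjusted p = 0.0205), and the call was lost without vehicle 3, vehicle 6 or any CORT library (adjusted p 0.0431 to 0.113 over the 6). DESeq2 gave no adjusted p for it. Ctrl held 0, 0 and 4 counts of *Chac1* and stress 6, 0 and 12.

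Apart from *Herpud1*, and with the 5 other called genes included, 13 of 32 genes were above 0 and 19 below, with a median of -0.019 beside 0.014 over all genes, and the 95% intervals of 28 lay within 2-fold. The 7 other ERAD genes had a median of -0.0078, with *Syvn1* at -0.081, *Sel1l* at 0.13, *Edem1* at -0.0048, *Edem2* at -0.029, *Derl1* at -0.12 and *Derl2* at -0.0078, and none passed. *Hsp90b1*, *Calr* and *Canx* lay between 0.0012 and 0.036. *Dnajb9*, a co-chaperone that is a classic target of XBP1, had 19.5, 18.7 and 20.5 CPM in vehicle and 21, 28.6 and 27.9 CPM in CORT, higher in every library, at 0.38 with an adjusted p of 0.155. *Atf4* was at -0.21, *Atf5* at -0.30 and *Ddit3* at 0.15, all short of the threshold. Groups did not overlap in 9 of the 33 genes (27.3%), beside 28.7% of all genes.

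**Figure D3:**
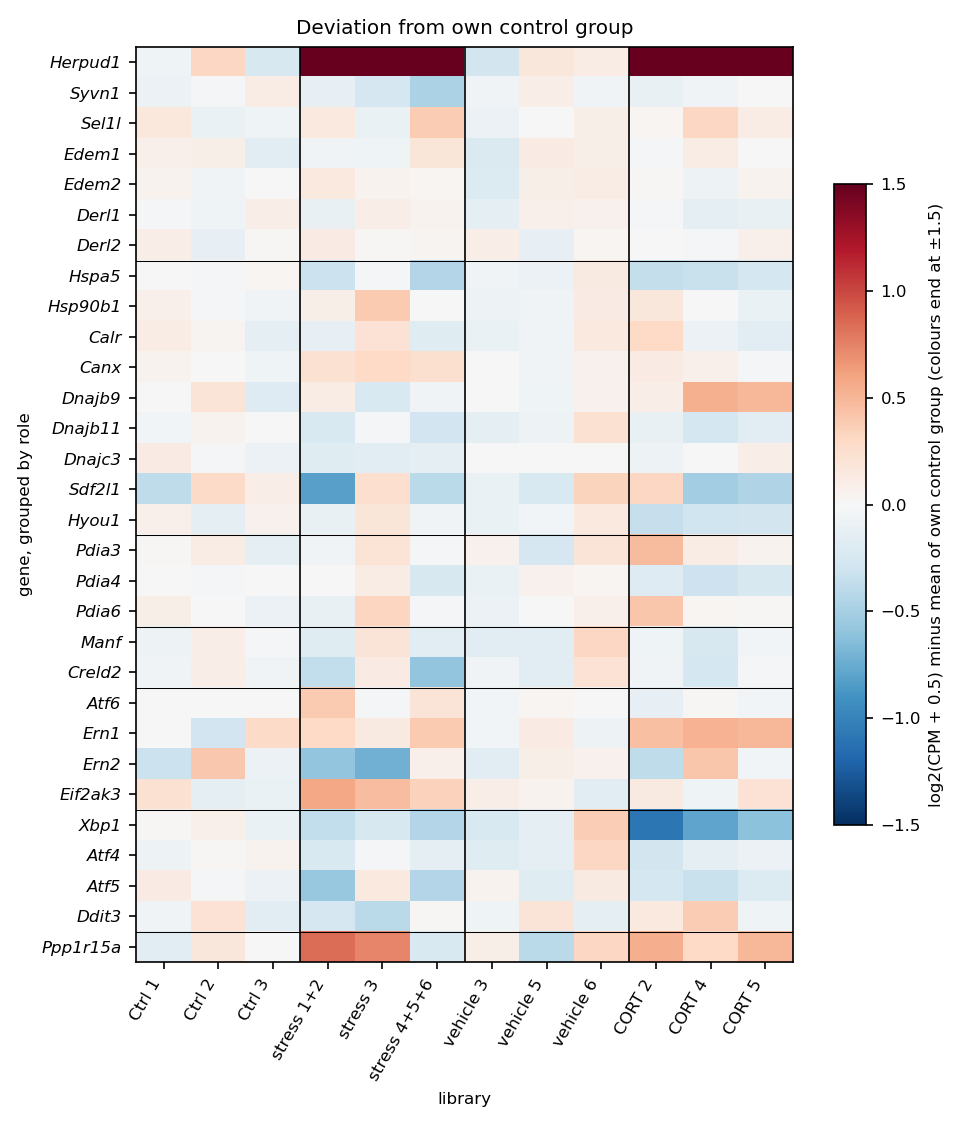
Log2(CPM + 0.5) of each library minus the mean of its own control group (Ctrl for Ctrl and stress, vehicle for vehicle and CORT), for the 30 genes above the lowest levels, as colors that end at ±1.5. Columns are libraries and rows genes by role: *Herpud1* is at the end of the scale in all 6 treated libraries, and *Xbp1* is lower in all 6.

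Of the 9 genes with an exact ERSE, *Hspa5* fell in CORT and the other 8 did not pass in either comparison. *Dnajb11*, which with *Herpud1* held an exact ERSE-II, was at -0.17 in stress (adjusted p = 0.439) and at -0.21 in CORT (adjusted p = 0.242). *Herpud1* was the single gene of the 33 called higher in both comparisons.

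The level of *Herpud1* in each library was set against the mean of 30 other genes tested in both comparisons, on the log2(CPM + 0.5) scale. The mean of the others was between 5.80 and 6.00 in all 12 libraries (58.8 to 61.4 CPM as a geometric mean in Ctrl, 58.9 to 64.2 in stress, 55.5 to 63.5 in vehicle and 56.4 to 59.3 in CORT). *Herpud1* exceeded that mean by 0.55, 0.94 and 0.44 in Ctrl and by 2.59, 2.51 and 2.60 in stress. It exceeded it by 0.26, 0.68 and 0.45 in vehicle and by 3.47, 3.38 and 2.98 in CORT. A mean over genes that lie on both sides of 0 averages their changes, so it does not show whether single genes moved, for which the values above stand. The treated and control libraries did not overlap in this measure, and on log2(FPKM + 1) the difference between groups was the same, 1.94 in stress and 2.78 in CORT.

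**Figure D4:**
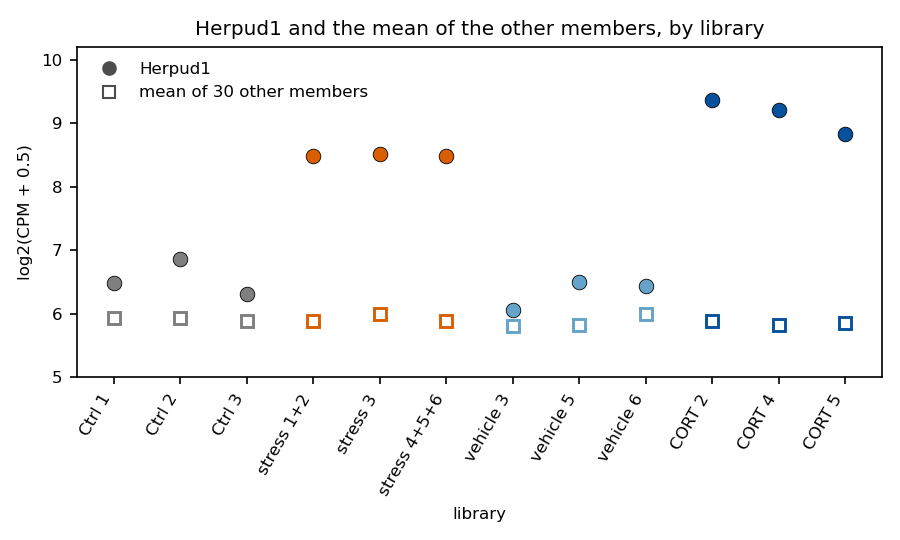
Log2(CPM + 0.5) (vertical axis) of *Herpud1* (circles) and the mean of 30 other genes (squares) in each of the 12 libraries (horizontal axis), colored by group. The squares, averages over genes that went both ways, lie between 5.80 and 6.00, and the circles are higher in all stress and CORT libraries than in their control libraries.

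The folding genes varied between libraries of a group. Of the 12 chaperones and isomerases, 10 were highest in stress 3 among the stress libraries, 10 in vehicle 6 among the vehicle libraries and 8 in CORT 2 among the CORT libraries, where 36.9%, 36.7% and 36.8% of all genes were highest. *Hsp90b1*, for instance, had 604 CPM in stress 3 and 488 and 456 CPM in the other stress libraries, and *Pdia6* 261 CPM in CORT 2 and 199 and 198 CPM in the others. *Herpud1* had 364 CPM in stress 3 and 357 CPM in both other stress libraries, in vehicle 6 it was below vehicle 5, and in CORT 2 it was, like most folding genes, highest (657 CPM against 589 and 454 CPM). Stress 3 had the lowest summed enterocyte markers of the stress libraries and vehicle 6 and CORT 2 were the deepest libraries of their groups, and the part of markers and depth was not tested.

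Both responses were then set against each other in 1 fit of all 12 libraries, as the stress response minus the CORT response. For *Herpud1* the difference was -0.87 (SE 0.22, 95% interval -1.33 to -0.41), which did not pass with edgeR (adjusted p = 0.0969) and passed with DESeq2 (-0.86, adjusted p = 0.00474). With edgeR 0 of the 33 genes passed, beside 0.194% of all genes higher and 0.194% lower, and 5 had an unadjusted p below 0.05 (*Canx*, *Hyou1*, *Xbp1* and *Chac1* with a difference above 0, *Herpud1* below), as had 12.5% of all genes. DESeq2 called 1, *Herpud1*, and limma 0. For *Xbp1* the difference was 0.51 (95% interval 0.076 to 0.95, adjusted p = 0.309).

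The controls were compared as well, since each treatment had a control group of its own. *Herpud1* was at -0.24 in vehicle vs. Ctrl (adjusted p = 0.62). None of the 31 genes tested passed with edgeR, DESeq2 or limma, beside 0.447% of all genes called higher and 0.352% lower with edgeR. At an unadjusted p below 0.05, *Chac1* was higher and *Syvn1*, *Dnajb9* and *Ppp1r15a* lower, and 11.1% of all genes passed it. Genes that respond to tissue dissociation, such as *Fos* and *Jun*, summed to 584 to 769 CPM in Ctrl and 562 to 848 CPM in stress, and to 341 to 411 CPM in vehicle and 336 to 358 CPM in CORT. They thus differed between the pairs of groups more than within them, and their part was not tested.

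A wider list of 91 further genes of the ER and of the ATF4 program was counted in the same fits, and all were tested in both comparisons. In stress 2 were higher and 1 lower, beside 1.30% and 0.590% of all genes, and the median was 0.047 beside -0.0028 over all genes. None of the 22 further ERAD genes, 18 folding and glycoprotein genes, 17 translocation genes or 12 sensing and processing genes passed. The 3 called genes were all ATF4 targets, namely the amino acid transporter gene *Slc7a5* (0.48, SE 0.09, adjusted p = 0.0277), the mitochondrial PEP carboxykinase gene *Pck2* (0.39, SE 0.079, adjusted p = 0.0382) and *Sesn2*, a sensor of leucine that restrains mTORC1 (-0.78, SE 0.14, adjusted p = 0.0255). They did not move in one direction. The count is fragile: it was 7 without stress 3 and 0 when any of the other 5 libraries was left out.

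In CORT 3 of the 91 were higher and 5 lower, near the 3.64% and 4.50% of all genes, with a median of -0.041 beside 0.014. Among the ERAD genes the ubiquitin-conjugating enzyme gene *Ube2g2* fell (-0.46, adjusted p = 0.0482). The thioredoxin-domain gene *Txndc11* fell (-0.34, adjusted p = 0.0297), and *Creb3l3*, an ER-anchored transcription factor of enterocytes and liver, fell (-1.14, adjusted p = 0.0381). *Sec61g*, a subunit of the translocon, rose from 36.1 ± 2.06 to 50.6 ± 0.998 CPM (SD, n = 3; log2 fold change 0.47, adjusted p = 0.0093). Of the 22 ATF4 targets, *Slc7a5* (0.42, adjusted p = 0.0491) and the alanine aminotransferase gene *Gpt2* (1.19, adjusted p = 0.0212) rose, and the arginine transporter gene *Slc7a1* (-0.55, adjusted p = 0.0052) and the transcription factor gene *Cebpb* (-1.01, adjusted p = 0.00232) fell. When 1 library was left out, 2 to 5 of the 91 passed, the lowest without CORT 4.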

How the data were processed

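ISCs sorted from 12 samples were sequenced as paired 150-bp reads on mm10. Per the labels the tools were HISAT2 2.2.1 and StringTie 2.2.1, and the methods of the study name HISAT2 2.0.5, featureCounts 1.5.0-p3 and DESeq2 1.20.0. The authors deposited estimated counts for each gene in 1 table, not divided by library size, in which 1 count stands for 75 covered bases. The deposited FPKM values served as alternatives, the deposited TPM values for levels between genes, and the deposited coverage (a signal per base) to find the unit of the counts. Counts are not stated to use strand, so overlapping genes can share them (*Atf5* with *Nup62*, *Ddit3* with *Mars*, *Manf* with *Rbm15b* and *Vprbp*, *Hsp90b1* with *1810014B01Rik*, *Syvn1* with *Mrpl49*, *Derl2* with *Mis12*). *Mrpl49* had 1051 to 5151 counts and overlaps *Syvn1* by 83 bases.

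Genes were tested with edgeR 4.0.16 in R 4.3.3 (quasi-likelihood F-test, TMM, filterByExpr, Benjamini-Hochberg adjustment over all genes tested, threshold 0.05) on the 6 libraries of a comparison, and on 12 for the difference of responses. The SE is the absolute log2 fold change divided by the square root of F. The script was tested on simulated counts. Alternatives were DESeq2 1.42.0, its size factors, other filters, limma 3.58.1 on log2(FPKM + 1) and log2(FPKM + 0.1), 1 fit of all libraries, thinned counts and leaving out each library. Promoters came from RefSeq (GRCm38.p6). The 33 genes, the wider list and the markers were chosen with earlier results of these data known. Values per library are given for *Herpud1* and each of the 33 genes called. Of the wider list, at most 5 called genes in each direction by adjusted p are named, and *Creb3l3* is also given per library. Values per library of *Canx*, *Eif2ak3*, *Syvn1*, *Dnajb9* and *Pdia4* were added after they had been seen. Intervals cover counting error only where they come from read pairs.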

Additional observations from a re-analysis of the deposited data

How the results depend on the processing

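*Herpud1* kept its direction and its call under all alternatives, at a log2 fold change of 1.81 to 2.1 in stress (adjusted p up to 0.0209) and 2.67 to 2.92 in CORT (adjusted p up to 0.0132). Its difference between the responses passed with DESeq2 (-0.86, making 1 gene called in place of 0) and was -1.0 to -0.70 when 1 library was left out. In stress DESeq2 called 2 of the 33 genes higher and 1 lower, and leaving out 1 library gave 0 to 2 lower. In CORT, limma on FPKM called 1 gene higher at each pseudocount and without a filter, and without the filter 1 lower. EdgeR without a filter on low counts called 2 lower, and leaving out 1 library gave 1 to 2 higher and 0 to 2 lower. Of the 91 further genes, 0 passed in stress without a filter and under each limma setting, and 0 to 7 with 1 library left out, and in CORT 3 passed with limma without a filter and 2 to 5 with 1 library left out. The median of the other members was -0.094 to -0.0057 in CORT and -0.10 to 0.042 in vehicle vs. Ctrl with 1 library left out. The cause of these shifts was not tested, beyond the fewer libraries in the fits that leave 1 out. Over all genes, calls of higher and lower genes ranged from 17 to 560 and 10 to 289 in stress (179 and 81 as reported), 215 to 823 and 269 to 965 in CORT (533 and 659), and 0 to 171 and 0 to 128 in vehicle vs. Ctrl (61 and 48). For the difference of the responses they ranged from 4 to 264 and 7 to 129 (28 and 28). No paired analysis was made because the labels name no pairs of libraries, and the joined stress numbers match no single Ctrl library. Genes near 3 read pairs (*Derl3*, *Trib3*, *Chac1*) are limited by depth.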

Other observations

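In vehicle vs. Ctrl, 3 of the 91 further genes of the ER and ATF4 programs were called, all higher in vehicle, beside 0.447% of all genes called higher and 0.352% lower. *Creb3l3* had 7.62, 8.15 and 7.03 CPM in Ctrl and 20.1, 47.1 and 47.3 CPM in vehicle (log2 fold change 2.33, SE 0.28, adjusted p = 0.00467), and 26.2, 10.7 and 72.6 CPM in stress and 17.8, 20.1 and 14.8 CPM in CORT. Its order among the stress libraries is that of the summed enterocyte markers (1038, 462 and 2007 CPM), whose part in the values of *Creb3l3* was not tested. *Slc7a5* was higher in vehicle than in Ctrl by 0.58 (SE 0.10, adjusted p = 0.0304), and *Eif4ebp1*, an inhibitor of cap-dependent translation, by 0.57 (SE 0.11, adjusted p = 0.0374). Levels of *Slc7a5* thus ran from 56 to 63.9 CPM in Ctrl through 80.9 to 87.6 CPM in stress and 82.4 to 105 CPM in vehicle to 108 to 133 CPM in CORT, and stress and vehicle overlapped.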
